A study of Mus musculus with 2 samples.

Results

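Cytosolic ribosomal protein genes encode the proteins of the ribosome, and 84 of the 20207 genes in the tables belong to this family. They were taken by name (Rpl or Rps followed by a number, an optional a, l or x and an optional digit, and also Rplp0 to Rplp2 and Rpsa). Of these, 46 are core genes of the large subunit, 31 are core genes of the small subunit and 7 are paralogs whose names add l or l1. The pattern does not take Fau, which encodes a ribosomal protein fused to a ubiquitin-like protein, so it is given separately.

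Total RNA was sequenced from embryoid bodies on day 6, clumps of differentiating mouse embryonic stem cells grown off the dish. Both groups carried an inducible short hairpin that targets HoxBlinc, a noncoding transcript of the HoxB cluster. The doxycycline group received the inducer at 2 ug/ml from day 2, the group without doxycycline did not, and each group is 1 library that combines RNA of 2 hairpins. The stem cells had been kept on irradiated feeder fibroblasts and were grown without feeders just before differentiation, and the labels name the lines R1/E and CGR8 MHC-GFP without saying which gave a library. HoxBlinc itself was not analysed here, so its level does not check the labels. With 1 library in each group nothing checks the spread between replicates, and what is compared are the libraries rather than the conditions. Intervals cover counting error only.

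A ribosome joins a small subunit, which reads the mRNA, to a large subunit, which forms peptide bonds. Nearly every core protein is needed in 1 copy in each ribosome, and the proteins are made in balance with ribosomal RNA. Most of their mRNAs start with a short tract of pyrimidines, the terminal oligopyrimidine (TOP) tract, through which mTOR signalling controls their translation. In the mouse, loss of 1 copy of some of these genes disturbs the skeleton, the skin or red cell production, and Rpl38 is known for its part in the translation of Hox mRNAs.

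Start sites of members that the results turn on are shown first, as 30 bases centred on the annotated start, 5′ to 3′, with the first transcribed base at position 16. Capitals mark an unbroken run of at least 5 pyrimidines that covers that base. The first 7 hold such a run and include core genes with the largest differences between the libraries. The last 4 hold none over that base, among them Rps2, the core gene lowest with doxycycline, and 3 paralogs. In each of these 4 windows, however, a C and at least 4 more pyrimidines do start within 10 bases of that base. The choice shown does not relate the run to the ratio. Rpl7a, which holds a run, had a log2 ratio of -0.30, and Rps25 and Rps19, not shown and without a run, had 0.48 and 0.41.
Rpl7a: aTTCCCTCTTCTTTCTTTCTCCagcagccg
Rps6: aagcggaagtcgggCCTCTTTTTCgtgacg
Rpl38: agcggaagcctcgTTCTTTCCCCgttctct
Rps27: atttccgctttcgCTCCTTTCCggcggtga
Rps24: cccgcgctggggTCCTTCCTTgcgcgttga
Rps15a: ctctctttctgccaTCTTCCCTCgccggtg
Rpl39: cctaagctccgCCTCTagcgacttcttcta
Rps2: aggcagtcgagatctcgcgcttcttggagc
Rpl22l1: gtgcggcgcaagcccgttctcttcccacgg
Rpl10l: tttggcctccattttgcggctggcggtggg
Rpl39l: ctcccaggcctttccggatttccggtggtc

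These windows are from RefSeq on GRCm38.p6, a later build than the mm9 of the deposited tables. On the plus strand they are chr2:26910792-26910821 for Rpl7a, chr11:114668565-114668594 for Rpl38 and chr14:24490663-24490692 for Rps24. The plus strand also carries those of Rps2 (chr17:24720048-24720077), Rpl22l1 (chr3:28805493-28805522) and Rpl39l (chr16:10170213-10170242). On the minus strand they are chr4:86857353-86857382 for Rps6, chr3:90213634-90213663 for Rps27, chr7:118116133-118116162 for Rps15a, chrX:37085208-37085237 for Rpl39 and chr12:66284387-66284416 for Rpl10l.

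The start sites of 56 core members were in the RefSeq table. A pyrimidine run over the first base stood at 20 of these 56 (35.7%), against 11.8% of all 27025 genes with a start site in the table. Core members with the run had a median log2 ratio of 0.13, and the 36 without it 0.11 (log2 of RPKM + 0.5 with over without doxycycline). In the window of 250 bases before to 50 after the start, the ETS factor core CCGGAA, on either strand, stood at 55.4% of core members and 16.7% of all genes. TCTCGCGA, part of a longer palindromic promoter element and sought on both strands, stood at 17.9% against 1.13%. The SP1 box GGGCGG (both strands) stood at 60.7% against 38.2%, and AAGATGG, the YY1 motif (both strands), at 16.1% against 7.28%. TATAAA, on the strand of the gene alone, stood at 8.93% of core members and 9.77% of all genes. The shares describe letters in a window, not bound factors.

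Before differences are read, the level of each member has to be weighed against how its reads were assigned. Processed copies of ribosomal protein genes are scattered through the mouse genome. Of the 83 members with coding transcripts in GENCODE M21, 80 share 50-base stretches with an annotated transcript of another gene, at a median of 50.8% of the transcript. The largest share was 93.3%, for Rpl9, and Rpl39l shared none. Of the 84 members, 83 had gene models that matched between the library tables, and the exception was Rpl3l.

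In both libraries the core genes were among the most abundant mRNAs. Of 77 core genes, 70 had at least 100 RPKM (reads scaled by gene model length and library depth) in both libraries. They held 65 of the 100 highest RPKM values with doxycycline and 62 without. The highest with doxycycline were Rpl41, which encodes the shortest ribosomal protein, Rplp1, an acidic protein of the stalk that recruits elongation factors, and Rps14, of the small subunit platform. Rpl41 was at 1636 RPKM with and 1363 RPKM without doxycycline. Rplp1 was at 1418 RPKM with and 1483 RPKM without doxycycline. Rps14 was at 1377 RPKM with and 1708 RPKM without doxycycline. The highest value without doxycycline was 1711 RPKM, for Rps2.

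Levels were not uniform, and 6 core genes stood far below the rest. All 6 were below 10 RPKM in both libraries. Among them Rpl27, of the large subunit, was at 5.04 RPKM with and 4.54 RPKM without doxycycline. Rps16, of the small subunit, was at 5.52 RPKM with and 4.25 RPKM without doxycycline, and Rps23 at 4.05 with and 3.50 without. The other 71 core genes had a median of 730.7 RPKM with and 649.7 RPKM without doxycycline, and none was below 70.4 RPKM with and 34.4 RPKM without. Each of the 6 lies under a second entry that RefSeq lists as a pseudogene, and the entry covers more than 50% of the member. Of the other 71 core genes, 0 lie under such an entry. Rps23, for example (chromosome 13, 91062727 to 91064337, mm9), lies under Gm15450, listed in RefSeq as Rps23-ps1, which had 2.99 counts with and 9.98 without doxycycline. Rpl27 (chromosome 11, 101303559 to 101306910) lies under Gm6199, listed as Rpl27-ps3, and Rps16 under Gm10079, listed as Rps16-ps2. The low values of these 6 genes are therefore given as listed, and whether their reads were discarded or went elsewhere was not tested.

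**Figure D1:**
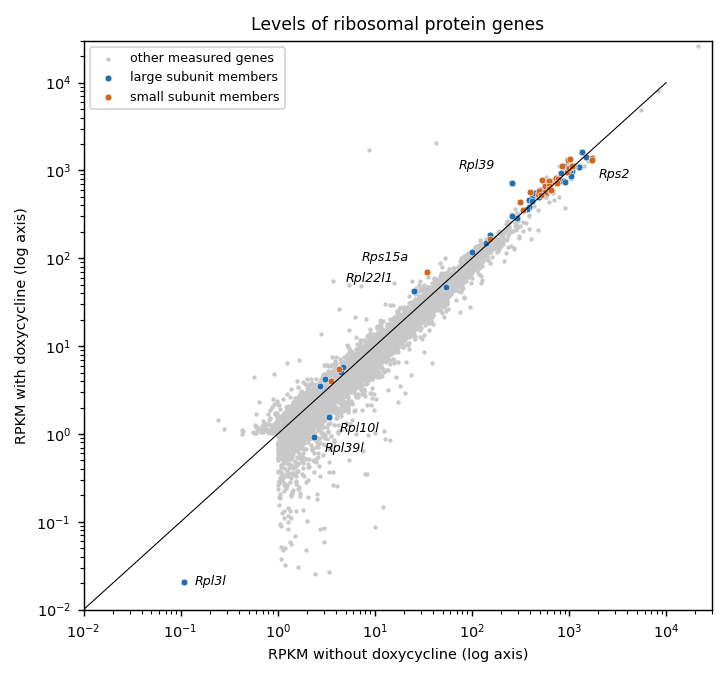
RPKM of each gene with doxycycline (vertical log axis) against RPKM without doxycycline (horizontal log axis). Grey points are other measured genes, blue and orange points are members of the large and small subunit, and the line marks equal values. Most members lie near the line at high RPKM, 6 core genes lie below 10 RPKM in both libraries, and Rpl39 lies furthest above the line among the members.

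As a group the core genes took a larger part of the reads in the doxycycline library. All 84 members had 1885762 of 24924921 gene counts with doxycycline and 2400136 of 37046449 without. This was 7.57% (exact Clopper-Pearson 95% interval 7.56 to 7.58) with and 6.48% (6.47 to 6.49) without doxycycline, a ratio of 1.17. The large subunit core made up 4.44% with and 3.83% without doxycycline, and the small subunit core 3.07% with and 2.60% without. On the per-length scale the members summed to 54320 RPKM with and 51050 RPKM without doxycycline, a ratio of 1.06. The authors' own scaling by the root mean square of RPKM gave a ratio of 0.904, so the direction of the sum follows the scaling.

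Relative to other genes, most core members were slightly higher with doxycycline. A log2 ratio was taken of RPKM + 0.5 with over without doxycycline, for the 11063 genes with at least 1 RPKM in the higher library. All 77 core genes passed that minimum in both libraries. Their median log2 ratio was 0.12 (quartiles 0.01 and 0.25), against -0.18 (quartiles -0.36 and -0.01) over all measured genes. The core median thus lay 0.30 above the median of all genes, and 72 of 77 core genes lay above it. In sign, 58 of 77 core genes (75.3%) were higher with doxycycline, against 23.1% of all measured genes. The 312 other genes with at least 100 RPKM had a median of -0.19. Without the 6 genes under a pseudogene entry, an alternative chosen after the values were seen, the core median lay 0.29 above that of all genes.

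The medians of the subunits lay close together, and their difference was not tested. The large subunit core had a median log2 ratio of 0.12 with 33 of 46 genes higher, and the small subunit core a median of 0.11 with 25 of 31 genes higher. The spread of the small subunit was wider at its upper end, with an upper quartile of 0.31 against 0.22 in the large subunit. The authors' root mean square scaling puts the core median at -0.12, still 0.28 above the median of all genes on that scale.

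How far single core genes differed depends on the scale. On the RPKM scale 66 of the 77 core genes differed by less than 1.25-fold, 9 by 1.25-fold to under 1.5-fold and 2 by 2-fold or more. On CPM (counts scaled to the library's gene count total) 32 of the 77 were at or past 1.25-fold. Over all 84 members 2 were at least 2-fold higher, where 0.262% of measured genes were, and 1, the paralog Rpl39l, was at least 2-fold lower, where 2.64% were. Rpl39l passed the minimum only through the library where it is higher, and the count was 0 with a pseudocount of 1 in place of 0.5, so nothing is read from it. At 1.5-fold 3 members were higher, against 1.08% of measured genes, and 2, Rpl39l among them, were lower, against 9.23%. On CPM the exact interval of the fold lay above 1 for 70 core genes, below 1 for 5 and included 1 for 2. Of all measured genes 28.6% had an interval above 1 and 36.8% below 1, so at this depth an interval away from 1 is common. Over all members 73 intervals lay above 1 and 7 below, with Rpl39l among those below. With all counts halved 70 lay above and 7 below, where 22.8% of all measured genes lay above and 30.2% below.

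Other contents of the embryoid bodies differed between the libraries as well. On the RPKM scale the median of all measured genes was 0.881-fold with over without doxycycline, so a slightly lower sum is not set apart from other genes. Of the marker genes listed for 7 cell classes, the 4 pluripotency markers summed to 141.3 RPKM with and 170.5 RPKM without doxycycline. Epcam, the highest of them, was at 62.2 RPKM with and 62.9 RPKM without, while Pou5f1, Nanog and Sox2 were lower with doxycycline. The 2 embryonic globins of red cells, Hbb-bh1 and Hba-x, were at 0 with doxycycline and summed to 36.0 RPKM without. The 4 mesoderm markers summed to 6.72 RPKM with and 23.2 RPKM without doxycycline, but T went the other way, at 4.79 RPKM with and 0.909 RPKM without. The other 3 mesoderm markers summed to 1.93 RPKM with and 22.3 RPKM without doxycycline. The 4 endoderm markers summed to 5.73 RPKM with and 12.7 RPKM without doxycycline. Of the 2 ectoderm markers, which summed to 11.4 RPKM with and 12.4 RPKM without doxycycline, Nes was at 11.18 RPKM with and 11.02 RPKM without, and Pax6 at 0.195 with and 1.38 without. Of the 2 heart markers Nkx2-5 was at 0 with doxycycline, and both summed to 0.147 RPKM with and 15.1 RPKM without. The 4 fibroblast markers summed to 18.3 RPKM with and 35.2 RPKM without doxycycline, with none at 0. In these bulk libraries fewer cells of a type and less RNA per cell cannot be told apart, and the part of these classes in the ribosomal protein values was not tested.

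**Figure D2:**
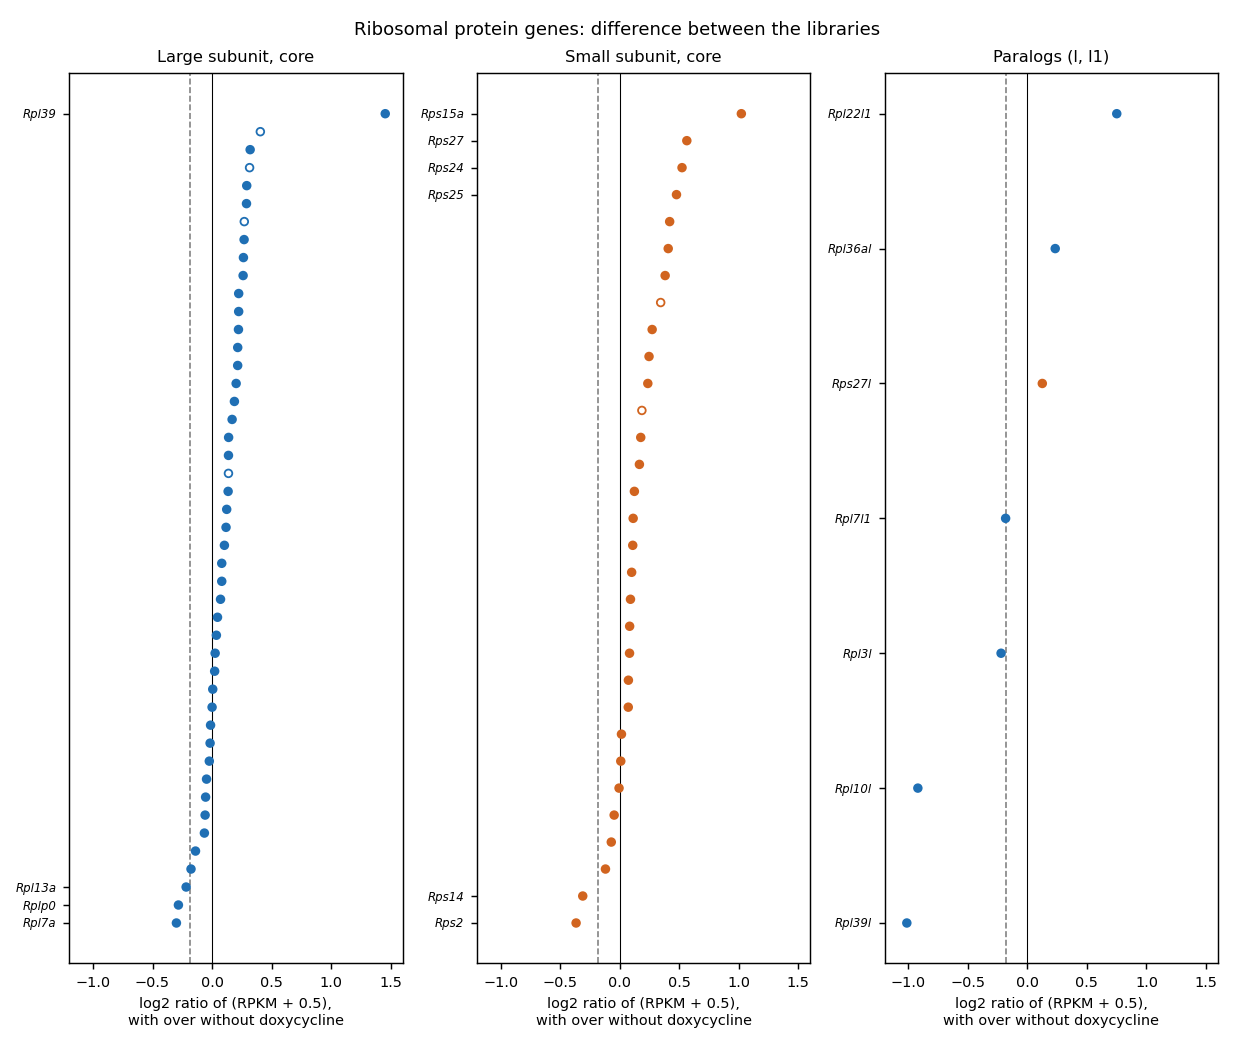
Log2 ratio of RPKM + 0.5, with over without doxycycline, for each of the 84 members, in panels for the large subunit core, the small subunit core and the paralogs. Names are given to the 5 highest and 5 lowest core genes and to the paralogs. The solid line marks 0 and the dashed line the median of all measured genes, -0.18. Open circles are the 6 genes under a pseudogene entry. Points are single library pairs with no error bar. Most core genes lie right of the dashed line, with Rpl39 and Rps15a furthest right.

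Rpl39 was the core gene with the largest difference. It encodes a short basic protein that lines the exit tunnel of the large subunit (chromosome X, 34622515 to 34625179). Rpl39 was at 718.5 RPKM with and 261.9 RPKM without doxycycline, and had 13090 counts with and 6323 without. On CPM it was 3.08-fold higher with doxycycline (95% interval 2.99 to 3.17). Of its transcript 16.2% is shared with transcripts of other genes, below the median of the members. The shared part is larger for the core genes named next, at 49.1% for Rps15a, 64.0% for Rps27, 61.8% for Rps24 and 61.2% for Rps25.

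Rps15a, a small subunit protein of the side that faces the solvent (chromosome 7, 125247890 to 125259661), was at 70.4 RPKM with and 34.4 RPKM without doxycycline. It had 16710 counts with and 10840 without doxycycline, a 2.29-fold higher CPM (2.24 to 2.35). The ratio of its counts to its RPKM corresponds to a gene model 7.31 times as long as that of the median core gene. Its RPKM is therefore low beside that of other core genes for its count, in both libraries alike.

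The next highest ratios were all of the small subunit. Rps27, a zinc finger protein of the small subunit, was at 780.5 RPKM with and 528.0 RPKM without doxycycline, 1.66-fold higher on CPM (1.62 to 1.70). Rps24, mutated in some families with Diamond-Blackfan anaemia in humans, was at 572.0 RPKM with and 397.9 RPKM without doxycycline. Its CPM was 1.61-fold higher (1.58 to 1.64). Rps25, needed for initiation at some viral internal entry sites, was at 437.8 RPKM with and 314.5 RPKM without doxycycline. Its CPM was 1.56-fold higher (1.52 to 1.599). Its gene model overlaps Ccdc84 over 9.02% of its length, and reads there cannot be assigned with certainty.

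The lowest ratios came from abundant genes of both subunits. Rps2, at the mRNA entry channel, was at 1327 RPKM with and 1711 RPKM without doxycycline, 1.15-fold lower on CPM (1.14 to 1.16). Rps14 was 1.11-fold lower (1.09 to 1.12) and Rpl7a, of the large subunit, 1.10-fold lower (1.08 to 1.11). Rpl7a was at 730.7 RPKM with and 899.4 RPKM without doxycycline. Rplp0, the base of the stalk, was at 860.6 RPKM with and 1047 RPKM without doxycycline, 1.08-fold lower (1.07 to 1.10). Rpl13a, which in human monocytes leaves the ribosome to repress interferon response mRNAs, was at 1085 RPKM with and 1262 RPKM without doxycycline, 1.04-fold lower (1.02 to 1.05). These 5 were the core genes whose CPM interval lay below 1. With TMM factors Rpl13a was at 1.007-fold (0.995 to 1.02), an interval that includes 1, while the other 4 stayed below 1.

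Genes were also read by their place in the ribosome. All 3 stalk genes had negative log2 ratios, -0.28 for Rplp0, -0.06 for Rplp1 and -0.02 for Rplp2, but on CPM only Rplp0 was lower. By the sign of the ratio, 75.3% of all core genes and 23.1% of all measured genes were higher with doxycycline. Rplp1 and Rplp2 still lay above the median of all measured genes, -0.18. Rpl5 and Rpl11, which form a particle with 5S RNA that also restrains Mdm2, the p53 ubiquitin ligase, had log2 ratios of 0.08 and -0.05. Rpl3, Rpl4 and Rpl10, which reach towards the peptidyl transferase centre, had log2 ratios of 0.00, 0.12 and 0.10. Rpl3 was at 1136 RPKM in both libraries. Rps3, near the mRNA entry, had a log2 ratio of 0.01, and Rps6, the substrate of the S6 kinases, 0.08. Rpsa, known also as the laminin receptor, was at 604.0 RPKM with and 656.4 RPKM without doxycycline, with a log2 ratio of -0.12.

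The 9 genes of the Diamond-Blackfan list, a failure of red cell production in humans, had a median log2 ratio of 0.14. Of the 9 genes, 7 were higher with doxycycline, where 75.3% of all core genes and 23.1% of all measured genes were. The range ran from -0.05 for Rpl11 to 0.52 for Rps24. Rps19, the gene most often mutated in that disease, was at 1118 RPKM with and 843.0 RPKM without doxycycline, 1.49-fold higher on CPM (1.46 to 1.51). Rps7 had a log2 ratio of -0.05, Rps10 of 0.11 and Rps26 of 0.24. The median of the list is close to the 0.12 of the whole core.

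The 5 genes known from mouse patterning or skin mutants were all higher with doxycycline, at a median log2 ratio of 0.27, where 75.3% of all core genes were higher. Rpl38, mutated in Tail-short mice, was at 592.9 RPKM with and 508.4 RPKM without doxycycline, 1.31-fold higher on CPM (1.27 to 1.35). Rpl24, mutated in Belly spot and tail mice, was at 529.9 RPKM with and 439.7 RPKM without doxycycline. On CPM this was 1.35-fold higher (1.32 to 1.38). Rps20, mutated with Rps19 in dark skin mice, was at 1313 RPKM with and 981.7 RPKM without doxycycline. On CPM this was 1.499-fold higher (1.48 to 1.52). Rpl27a, mutated in sooty foot ataxia mice, was at 487.1 RPKM with and 419.6 RPKM without doxycycline. On CPM this was 1.30-fold higher (1.28 to 1.32).

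Genes of fusion proteins and of a scaffold of the small subunit were read as well. Rps27a, whose protein is made as a fusion with ubiquitin, was at 540.8 RPKM with and 478.5 RPKM without doxycycline. Fau was at 481.5 RPKM with and 485.4 RPKM without doxycycline. Gnb2l1, which encodes the small subunit scaffold RACK1, was at 955.0 RPKM with and 986.1 RPKM without doxycycline.

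Some of the paralogs can take the place of a core protein in certain tissues, and their share of the pair was compared between the libraries. Rpl22l1 was the only paralog whose share of its pair was larger with than without doxycycline. Rpl22l1 was at 42.8 RPKM with and 25.3 RPKM without doxycycline, while Rpl22 was at 147.4 RPKM with and 140.3 RPKM without. Rpl22l1 thus made up 22.5% of the pair with and 15.3% without doxycycline. The ratio of its counts to those of Rpl22 was 1.61 times as high with doxycycline (exact conditional 95% interval 1.46 to 1.78). Of the Rpl22l1 transcript 57.3% is shared with transcripts of other genes, and its counts were not whole numbers.

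The testis-enriched paralogs Rpl39l and Rpl10l were low in both libraries. Rpl39l had 34 counts with and 116 without doxycycline, at 0.914 and 2.35 RPKM, and passed the minimum only through the library without doxycycline. It made up 0.127% of the pair with Rpl39 with doxycycline and 0.890% without, and the count ratio to Rpl39 was 7.06 times as low (4.78 to 10.7), with Rpl39 itself higher. On its own Rpl39l was 2.29-fold lower on CPM (1.55 to 3.47). Because only the library without doxycycline reached the minimum, nothing is read from the direction of Rpl39l or from its share. Rpl10l, which takes the place of the X-linked Rpl10 in male germ cells, had 73 counts with and 211 without doxycycline, at 1.55 and 3.37 RPKM. It made up 0.206% of the pair with and 0.481% without doxycycline, a count ratio 2.34 times as low (1.79 to 3.10). Rpl3l, the paralog of striated muscle, had 1 count with and 9 without doxycycline, and was not compared because its gene models differ between the tables.

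The 3 abundant paralogs differed less. Rps27l, in humans a p53 target gene, was at 167.9 RPKM with and 153.9 RPKM without doxycycline. It made up 17.7% of the pair with Rps27 with doxycycline and 22.6% without, a count ratio 1.36 times as low (1.29 to 1.43), with Rps27 itself higher. Rpl7l1 was at 47.7 RPKM with and 54.2 RPKM without doxycycline, 5.98% and 6.69% of its pair, a count ratio 1.13 times as low (1.09 to 1.17). Rpl36al was at 182.7 RPKM with and 155.3 RPKM without doxycycline, 25.0% and 25.8% of its pair with Rpl36a, and the interval of the count ratio included 1 (0.916 to 1.01).

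**Figure D3:**
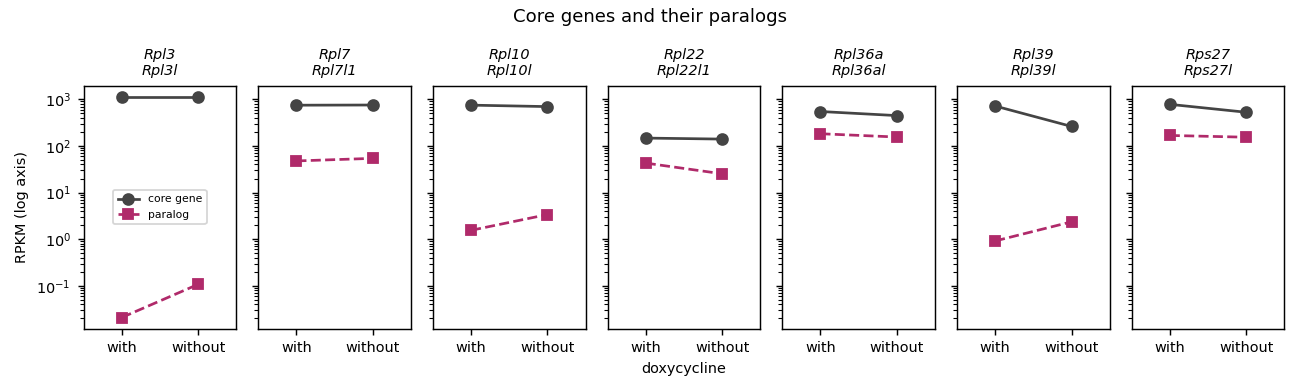
RPKM (log axis) of each core gene (circles) and its paralog (squares), with doxycycline on the left and without on the right of each panel. Each point is 1 library with no error bar, and lines join the same gene. Rpl22l1 is nearer to Rpl22 with doxycycline, and Rpl10l is further from Rpl10. Rpl39l is also further from Rpl39, but it reached the minimum only without doxycycline and nothing is read from it.

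Genes that build ribosomes and other mRNAs with a TOP tract lay closer to the rest of the transcriptome. Ribosome biogenesis genes, which transcribe and process ribosomal RNA and assemble the subunits, had 113 measured of 119 listed. Their median lay 0.0016 above that of all measured genes, with 0 past 2-fold, 1 at least 1.5-fold higher and 3 at least 1.5-fold lower. Of all measured genes 1.08% were at least 1.5-fold higher and 9.23% at least 1.5-fold lower. At 2-fold these shares were 0.262% and 2.64%. Nop10, of the pseudouridylation complexes, was at 28.2 RPKM with and 18.2 RPKM without doxycycline, 1.74-fold higher on CPM (1.58 to 1.91). Npm1, nucleophosmin, was 1.32-fold higher (1.30 to 1.33). Cd3eap, a subunit of RNA polymerase I, was 1.55-fold lower (1.36 to 1.78), and Tbl3, of the small subunit processome, 1.48-fold lower (1.41 to 1.55).

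The 24 measured of 25 other listed TOP mRNAs, among them elongation factors and Fau, had a median 0.13 above that of all genes. Of these, 0 were past 2-fold and 1, Hnrnpa1, was at least 1.5-fold lower, where 9.23% of all measured genes were. Hnrnpa1, an RNA-binding protein, was 1.52-fold lower on CPM (1.41 to 1.62). Pabpc1, the poly(A)-binding protein, was 1.33-fold higher (1.31 to 1.36).

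The 19 measured of 21 listed regulators of TOP mRNAs, in and around mTOR signalling, had a median 0.07 above that of all genes. Of the 19, 1 was at least 2-fold lower, where 2.64% of all measured genes were. That gene was Mycn, a Myc family factor of stem and progenitor cells. Mycn was at 4.44 RPKM with and 10.5 RPKM without doxycycline, 2.10-fold lower on CPM (1.91 to 2.32). Eif4ebp1, the repressor of cap-dependent initiation, was 1.40-fold higher (1.34 to 1.46), Eif4ebp2 1.29-fold higher (1.15 to 1.45) and the kinase Akt1 1.47-fold lower (1.40 to 1.54).

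The 74 mitochondrial ribosomal protein genes, which serve the separate ribosome of mitochondria, had a median 0.12 above that of all genes, and 0 were past 1.5-fold. Among all measured genes 1.08% were at least 1.5-fold higher and 9.23% at least 1.5-fold lower. Mrps10 was 1.35-fold higher (1.24 to 1.46) and Mrpl53 1.33-fold higher (1.19 to 1.48), while Mrpl14 was 1.28-fold lower (1.11 to 1.46) and Mrps11 1.25-fold lower (1.09 to 1.43). The cytosolic core, at 0.30, had the highest median of these lists, and the difference between lists was not tested.

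**Figure D4:**
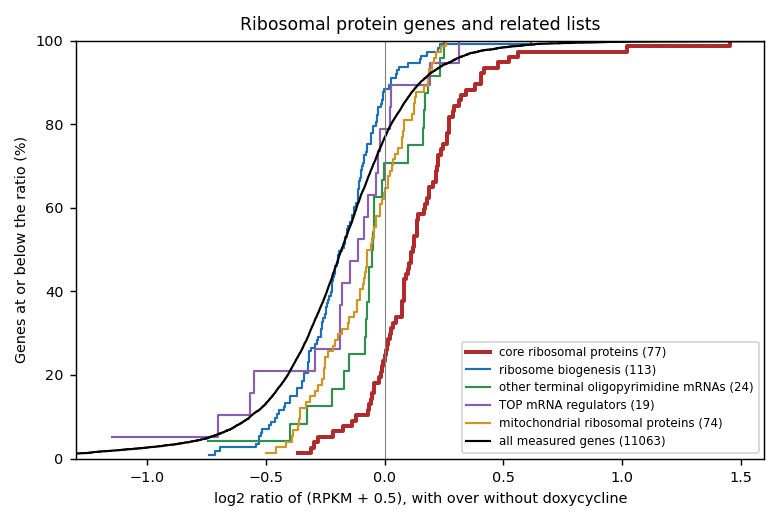
Percent of genes (vertical axis) at or below each log2 ratio of RPKM + 0.5, with over without doxycycline (horizontal axis), for the 77 core genes, the 4 related lists and all 11063 measured genes. The line of the core genes lies to the right of the others over most of its range, and that of ribosome biogenesis genes crosses the line of all genes near its middle.

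Ratios of the core genes varied with properties of their transcripts. Across the 77 core genes the log2 ratio had a Spearman rho of -0.30 and a Pearson r of -0.10 with gene model length. Without Rpl39 and Rps15a both were near -0.3 (rho -0.32, r -0.31), while over the 10978 other measured genes with a length rho was 0.00. By length class, the 26 shortest core genes had a median log2 ratio of 0.18, the 25 in the middle 0.07 and the 26 longest 0.08. Other genes in the same length ranges had medians of -0.08 (170 genes), -0.03 (334 genes) and -0.20 (8932 genes). In the shortest and middle classes the core genes thus lay closer to genes of like length than to all measured genes. In the longest class they did not. The ratio also varied with GC content of coding transcripts, with rho -0.33 over 76 core genes and -0.31 over 9551 other genes. With mean RPKM rho was -0.38 over the core genes and 0.04 over other genes. All these points share the same 2 libraries, and the part of length, GC content and level in the difference was not tested.

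**Figure D5:**
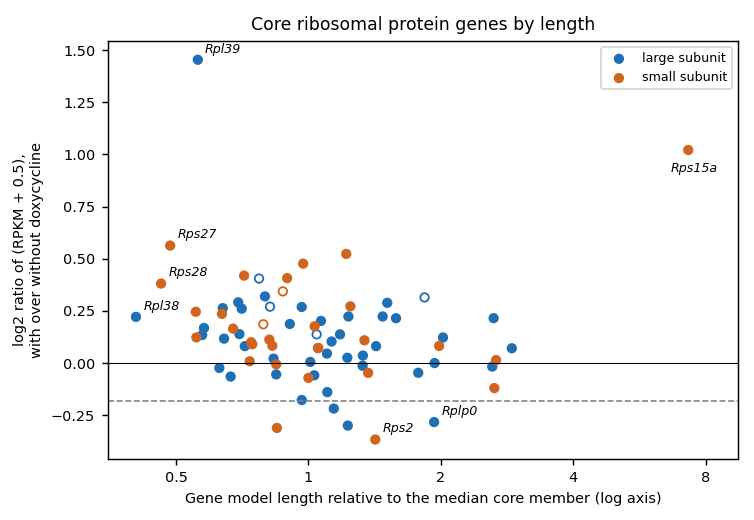
Log2 ratio of RPKM + 0.5, with over without doxycycline, of the 77 core genes (vertical axis) against gene model length relative to the median core gene (horizontal log axis). Open circles are the 6 genes under a pseudogene entry and the dashed line is the median of all measured genes, -0.18. Blue and orange mark the large and small subunit. Rpl39 and Rps27 stand among the short genes above the rest, Rps2 and Rplp0 among the longer genes below, and Rps15a alone at 7.31.

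Introns of 15 members hold 20 small nucleolar RNA entries, which guide modification of ribosomal RNA, and some had values far from those of the host. In Rps3 the entry Gm5775, listed in RefSeq as Snord15b, had 11450 counts with and 78 without doxycycline, 218.2-fold higher on CPM (174.7 to 276.2). Gm5774, listed as Snord15a, had 5309 with and 5347 without, 1.48-fold higher on CPM (1.42 to 1.53). Rps3 itself had 45110 with and 59200 without, 1.13-fold higher on CPM (1.12 to 1.15). Snora64 in Rps2 had 268 counts with and 39 without doxycycline, 10.2-fold higher on CPM (7.28 to 14.7). Snora21 in Rpl23 had 157 counts with and 33 without, 7.07-fold higher on CPM (4.83 to 10.6). Snora70 in Rpl10 had 81 with and 22 without, 5.47-fold higher on CPM (3.38 to 9.21). Snora65 in Rpl12, at 43 with and 89 without, and Snora3 in Rpl27a, at 17 with and 34 without, were lower. The nucleolar RNA entries that were lower, Snora65 and Snora3 among them, all had CPM intervals that included 1. Of the 20 entries 14 had reads.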

How the data were processed

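Total RNA of 1 library with and 1 without doxycycline was sequenced as paired-end reads, with Bowtie2 and the build mm9 in the submitters' processing notes. For the counting program, annotation and strandedness, nothing was given in the sources used here. The hairpin promoter and line clones were likewise not given. Per the file headers, the authors computed an RPKM for each gene and library. The authors deposited beside it an estimated count of reads per gene. The authors deposited a standard score of each RPKM, centred and scaled over the genes of its library, which enters no result. The authors' RMS-normalized RPKM is the ratio of RPKM to its root mean square in the library. The deposited counts carry 4 significant digits, and 825 genes with and 1062 without doxycycline had a count that was not whole. Gene counts summed to 24924921 with and 37046449 without doxycycline.

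Library tables were joined by gene name, since 173 rows (0 of them members) stood in another order and the authors' merged table sets rows side by side. Log2 ratios used RPKM + 0.5 and a minimum of 1 RPKM in the higher library. Per-million scaling differed between RPKM (ratio 1.33 without over with doxycycline) and gene counts (1.49). Folds are ratios of CPM with exact conditional binomial 95% intervals on rounded counts. Genes with 2 counts outnumber those with 1 (603 against 296 with doxycycline, 846 against 583 without), so mates may be counted singly and intervals may be too narrow. No p-value was computed. Ratios and intervals were tested with simulated counts of known folds. Those counts were independent, with folds larger than those of most members. Mates counted singly and spread between cultures were not simulated, so the test does not cover these limits.

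Members and lists were chosen with earlier results of these data known. Genes named were all paralogs and their core genes, the 5 highest and 5 lowest core ratios, the 3 highest levels, the role groups, and the 2 highest and 2 lowest ratios at 5 RPKM or more per related list. The 6 genes under pseudogene entries, Rpl9, Gnb2l1 and the nucleolar RNAs were added after their values were seen. Some genes that the rule takes are not reported here. Shared 50-base stretches and GC content came from GENCODE M21 transcripts, start sites from RefSeq on GRCm38.p6, matched by symbol (63 members). Alternatives were other pseudocounts, minimums, scalings (CPM, edgeR 4.0.16 TMM, median-of-ratios, RMS), halved counts, the merged table and omitted genes. Python 3.11.15, scipy 1.17.1 and R 4.3.3 were used.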

Additional observations from a re-analysis of the deposited data

How the results depend on the processing

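No paired analysis was possible because each group is 1 library. Of 202 recomputed values of the main results over 20 settings, 160 were classed as little moved, 33 moved further and 9 changed sign. Some of the 160 could not move. Halving all counts leaves the ratio of the shares at 1.17, and centring leaves medians relative to all measured genes unchanged, at 0.30 for the core. The class also allowed small moves in counts, such as members at least 1.5-fold lower going from 2 to 3 on the RMS scale. The 160 are therefore not a measure of robustness. The core median relative to all measured genes stayed positive in the settings that recomputed it, between 0.21 and 0.31. It was lowest with no minimum RPKM, at 0.21 (small subunit 0.21). That setting also gave -0.0845 for ribosome biogenesis genes, 0.0455 for other TOP mRNAs, -0.0179 for TOP regulators and 0.0313 for mitochondrial ribosomal proteins. Ribosome biogenesis genes were also below the median of all genes by TMM (-0.0003), median-of-ratios (-0.0002) and RMS scaling (-0.0031).

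Uncentred medians followed the scaling. For the core, large subunit and small subunit they were 0.28, 0.28 and 0.28 on CPM, 0.34, 0.35 and 0.34 by TMM, 0.34, 0.35 and 0.34 by median-of-ratios, 0.30, 0.30 and 0.30 on centred RPKM, and -0.12, -0.11 and -0.12 on the authors' RMS scale. RMS scaling also gave a ratio of summed values of 0.904. The median of all genes was 0.0311 by TMM and 0.0291 by median-of-ratios.

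Members at least 2-fold lower numbered 2 with a pseudocount of 0.1 and 2 on the RMS scale. They numbered 0 with a pseudocount of 1, a minimum of 5 RPKM, CPM, TMM or median-of-ratios (the pseudocount of 0.5 added to each scale) or centring. The RMS scale left 1 member at least 2-fold higher. Members at least 1.5-fold lower numbered 0 at a minimum of 5 RPKM. Those at least 1.5-fold higher numbered 6 on CPM, 10 by TMM, 10 by median-of-ratios and 9 with centring. The ratio of the shares of counts was 1.18 without the 10 genes with most counts and 1.16 without Rpl39 and Rps15a (chosen after seeing the data). A C and at least 4 more pyrimidines starting within 10 bases of the start stood at 60.7% of core members and 34.4% of all genes, a rule that differs in both position and first base. By TMM or median-of-ratios Rpl13a was no longer below 1. The cause of these moves was not tested. With 1 library per group, depth limits counting error only, and the spread between embryoid body cultures is unknown.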
